A study of Danio rerio with 14 samples.

Results

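Zebrafish larvae (Danio rerio, wild type, strain AB), sampled whole and raised in full-strength wastewater effluent were compared with larvae raised in vehicle alone, across all genes of a 1-colour Agilent array. Members were all arrays that the labels assign to these groups, 9 of the 14 arrays in the series (5 at 1x and 4 controls). The other 5 received effluent at 0.5x. They entered the estimate of the spread, the probe filter, the choice of 1 probe per gene and a comparison of the concentrations. The slide and scan day terms of the fits with a block were also estimated with them. Embryos of the 1x group were kept from 3 h after fertilisation, for 5 days, in an extract of secondary effluent brought back to its original strength in E3 embryo medium with 0.05% DMSO. Control embryos were kept for the same time in E3 with 0.05% DMSO, so both groups carried the solvent. Wells contained 4 mL of medium with 25 to 30 embryos at 28 °C and were renewed every 24 h, the larvae of a well were pooled as 1 replicate, and 200 ng of RNA was labelled with Cy3. The p-values therefore measure the spread between wells, which includes differences between the slides and scan days given below. The clutch behind each well is not stated in the labels.

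Treated effluent is a mixture that can hold pharmaceuticals, steroids, surfactants and plasticisers. Much work on such mixtures follows a short set of sentinel genes for dioxin-like, estrogenic and metal exposure, and a larva of this age also runs programmes those sentinels do not read. Its nervous system is still wiring, with protocadherins, netrins, semaphorins and ephrins at the surface of growing neurons, while liver and gut take over metabolism from the yolk. The genes and families below were taken from across the array for that reason.

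The arrays lay on 4 slides scanned on 2 days. Slide 1 held control 1 and 1x 1, slide 2 control 2 with 1x 2 and 3 (both scan day 1), slide 3 control 3 with 1x 4 and 5, and slide 4 control 4 with no 1x array (both scan day 2). All 4 controls lay in position 1 of their slide and the 1x arrays in positions 2 to 4, so group and position cannot be told apart. With slide as a random block, arrays of the same slide had an estimated correlation of 0.303, so they were not independent. The median processed signal was 131 to 193 on control arrays and 175 to 252 on 1x arrays. The share of probes well above background was 85.4% to 88.1% on control arrays and 89% to 90.9% on 1x arrays. Every 1x array thus had a larger share than every control. In a principal component analysis of the 9 arrays the first component (49.8% of the variance) placed the 1x arrays at 22 to 53.5, controls 3 and 4 at -11.4 and -4.56, and controls 1 and 2, both of scan day 1, apart from them at -112 and -72.8. Of 49 markers of 19 tissues, among them muscle, lens, liver, skin, blood and notochord, 48 were well above background on all 9 arrays; the exception was the germ-cell gene dnd1 (2 of 4 control and 4 of 5 1x arrays). The change of 26 of the 49 markers differed between scan days, beside 17.2% of all genes. Values within each day are therefore printed beside many of the pooled ones. A change given without them need not be even over the days. In bulk RNA, fewer cells of a type and less RNA per cell cannot be told apart.

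Values are log2 signal relative to the array's 75th percentile, and changes are 1x minus control on that log2 scale, with adjusted p from limma over all probes. Across 38807 probes 11168 passed the threshold of 0.05 (28.8%). With 1 probe per gene, 3408 of 12811 genes passed (26.6%), 1320 higher (10.3%) and 2088 lower (16.3%) in effluent larvae, and for 2606 genes (20.3%) all arrays of one group exceeded all of the other. The probe count fell to 5963 without control 1, 7294 without control 2, 6959 without 1x 3 and 4278 without both day 1 controls, the last chosen after seeing the data. Of all called probes 34.3% were higher, and the share was 19.8% after normexp background correction, 45.2% after quantile scaling and 44.4% after median scaling. The median change of all genes was -0.05, against -0.10 with normexp.

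The 2 scan days gave unequal sizes. The same sign on both days was seen for 8304 of the 12811 genes; among the 3408 called genes it was 3380, a count that the choice of genes by the pooled change of the same arrays largely fixes. The test of the difference between days passed for 755 of the called genes. That test passed for 2198 of all genes (17.2%). On scan day 2 alone 522 genes passed (4.07%), 264 higher and 258 lower. Genes are called steady here where all 9 arrays were above background and the change passed both without a block and with slide as a block. A steady gene also had groups that did not overlap and the same sign on both days. Groups that do not overlap have the same sign on both days by construction, so that sign is no separate check of the days. There were 848 steady higher genes (6.62%) and 1362 steady lower genes (10.6%), of which 41 and 30 changed at least 2-fold on both days. Against 0.5x, where 553 of all genes passed (4.32%), 268 of the 2210 steady genes passed. Both comparisons use the same 1x arrays. Of the 0.5x arrays, replicate 1 was scanned on day 1 and replicates 2 to 5 on day 2. Replicates 3 to 5 lay on slide 4, which held no 1x array. Concentration was therefore not balanced over slides and scan days.

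**Figure D1:**
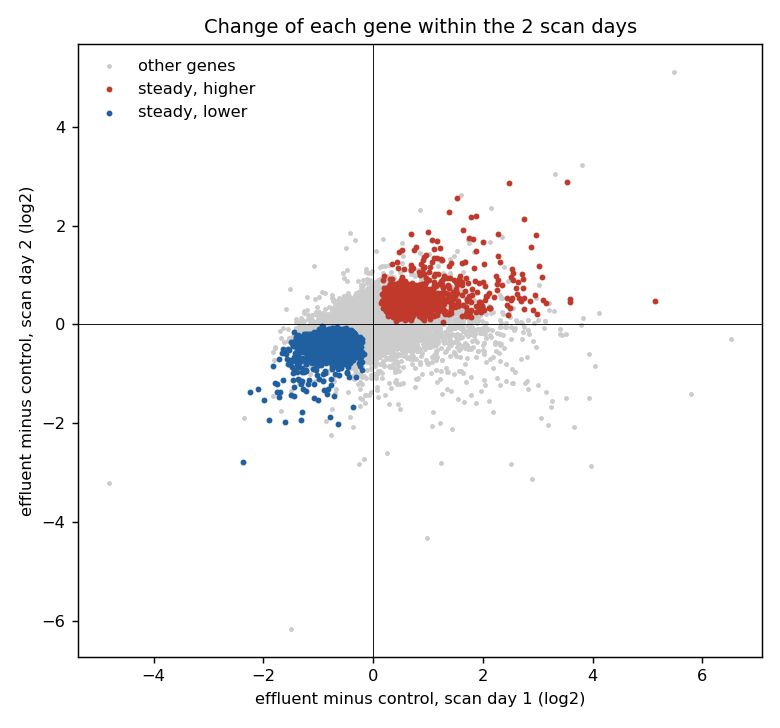
Each point is 1 of 12811 genes, with the effluent minus control difference (log2) of scan day 1 on the x axis and of scan day 2 on the y axis. The 848 steady higher genes (red) and 1362 steady lower genes (blue) lie at the upper right and lower left, as their definition requires. The other genes (grey) spread further along the day 1 axis than along the day 2 axis.

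Among the genes that rose on both days were several outside xenobiotic metabolism. They included an interferon receptor chain, a metabolite-repair enzyme, an N-terminal amidase, a kinase of the tRNA-modifying KEOPS complex, a small heat shock protein and a regulator of G-protein signalling. These genes were picked for groups that do not overlap and for large changes on both days, so neither is a separate result. The gene of the interferon gamma receptor chain ifngr2 lay at -1.39, -1.05, -1.004 and -1.30 on the control arrays and at 0.44, 0.47, 1.03, 1.05 and 1.01 on the effluent arrays. Every effluent array exceeded every control array. ifngr2 rose 3.97-fold (log2 change 1.99 ± 0.26 SE, n = 4 and 5, limma's adjusted p = 0.000511; 1.87 on scan day 1 and 2.18 on day 2). Of its 3 probes, 2 moved up and 1 down. The gene echdc1, whose enzyme in mammals removes ethylmalonyl-CoA formed by a side reaction of fatty acid synthesis, lay at -5.04, -4.55, -4.52 and -4.37 on the control arrays and at -2.89, -3.15, -2.70, -2.88 and -3.04 on the effluent arrays. The groups were separated by more than 1 log2 unit. echdc1 rose 3.22-fold (log2 change 1.69 ± 0.18 SE, n = 4 and 5, limma's adjusted p = 0.000128; 1.88 on scan day 1 and 1.48 on day 2). At 1x it was also above 0.5x by 1.20 (adjusted p = 0.00128).

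The level of ntan1, which deamidates N-terminal asparagine and so feeds proteins to the N-degron pathway, lay at -0.49, -0.43, -1.64 and -0.67 on the control arrays and at 0.61, 1.09, 1.08, 0.92 and 1.34 on the effluent arrays. Control 3 was the lowest array, and no control reached an effluent array. ntan1 rose 3.52-fold (log2 change 1.81 ± 0.25 SE, n = 4 and 5, limma's adjusted p = 0.000739; 1.39 on scan day 1 and 2.28 on day 2). Transcripts of hspb9, a small heat shock protein, lay at -0.69, -0.20, -0.53 and -0.44 on the control arrays and at 0.68, 0.72, 1.001, 0.74 and 0.89 on the effluent arrays. The spread within either group was small beside the gap. hspb9 rose 2.41-fold (log2 change 1.27 ± 0.12 SE, n = 4 and 5, limma's adjusted p = 4.51e-05; 1.25 on scan day 1 and 1.30 on day 2). Its excess of 1x over 0.5x was 0.98 (adjusted p = 0.000261). The kinase gene tp53rk lay at -1.995, -1.96, -1.32 and -1.36 on the control arrays and at -0.29, -0.37, -0.26, -0.01 and -0.15 on the effluent arrays. Controls 3 and 4, of scan day 2, were higher than controls 1 and 2, and all 4 stayed below the effluent arrays. tp53rk rose 2.72-fold (log2 change 1.44 ± 0.18 SE, n = 4 and 5, limma's adjusted p = 0.000409; 1.67 on scan day 1 and 1.26 on day 2).

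The gene rgs2, which speeds the shut-off of G-protein signals, lay at -2.30, -2.23, -2.06 and -1.70 on the control arrays and at -1.29, 0.11, -0.74, -0.40 and -0.89 on the effluent arrays. Effluent arrays were the more scattered group, yet the groups did not overlap. rgs2 rose 2.7-fold (log2 change 1.43 ± 0.29 SE, n = 4 and 5, limma's adjusted p = 0.00474; 1.63 on scan day 1 and 1.24 on day 2). The prostaglandin reductase gene ptgr1.1 rose by 1.28 ± 0.23 SE (adjusted p = 0.00298), by 1.42 on day 1 and 1.25 on day 2. The serine protease gene prss60.2 rose by 1.88 ± 0.26 (adjusted p = 0.00065), by 2.27 on day 1 and 1.38 on day 2. The gene of UDP-glucose dehydrogenase, ugdh, which makes the UDP-glucuronate used in conjugation and in matrix glycans, rose by 1.81 ± 0.20 (adjusted p = 0.000191), and less on day 2 (2.31 and 1.27, adjusted p = 0.0142 for the difference). The glucuronosyltransferase gene ugt5a1 rose by 1.32 ± 0.19 (adjusted p = 0.000935), by 1.22 on day 1 and 1.55 on day 2. The zinc finger gene znfl1b rose by 1.23 ± 0.18 (adjusted p = 0.00102) on the probe used, and of its 4 probes 2 moved up and 2 down.

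Among the genes that fell on both days were a netrin receptor, a thalamic neuropeptide, sphingolipid and N-glycan enzymes, an RNA sensor and a chromatin remodeller. They were picked in the same way as the genes that rose. The netrin receptor gene unc5a, which mediates repulsion of axons, lay at -2.30, -2.68, -2.75 and -2.75 on the control arrays and at -4.44, -4.17, -4.25, -3.76 and -4.12 on the effluent arrays. The highest effluent array lay well below the lowest control. unc5a fell 2.89-fold (log2 change -1.53 ± 0.16 SE, n = 4 and 5, limma's adjusted p = 0.000128; -1.80 on scan day 1 and -1.19 on day 2). At 1x it was also below 0.5x (difference -0.73, adjusted p = 0.0161). The gene of the neuropeptide Pth2, whose expression in the zebrafish brain is known to follow the presence of other fish, lay at -0.61, -0.92, -1.29 and -1.11 on the control arrays and at -2.24, -2.98, -2.16, -2.67 and -2.44 on the effluent arrays. No effluent array reached a control. pth2 fell 2.87-fold (log2 change -1.52 ± 0.21 SE, n = 4 and 5, limma's adjusted p = 0.000758; -1.70 on scan day 1 and -1.36 on day 2). Against 0.5x the difference was -0.91 (adjusted p = 0.0216).

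The ceramide synthase gene cers4a lay at -1.96, -2.38, -2.19 and -2.17 on the control arrays and at -3.89, -3.39, -3.57, -3.47 and -3.41 on the effluent arrays. Effluent arrays were again all below controls. cers4a fell 2.59-fold (log2 change -1.37 ± 0.17 SE, n = 4 and 5, limma's adjusted p = 0.000392; -1.45 on scan day 1 and -1.26 on day 2). The Golgi mannosidase gene man2a1, which trims N-glycans, lay at -2.67, -2.54, -2.86 and -2.64 on the control arrays and at -3.89, -3.59, -4.22, -3.98 and -3.82 on the effluent arrays. The ranges lay far apart. man2a1 fell 2.34-fold (log2 change -1.22 ± 0.13 SE, n = 4 and 5, limma's adjusted p = 0.000128; -1.30 on scan day 1 and -1.15 on day 2). The gene dhx58, which encodes the RIG-I-like RNA sensor Lgp2, lay at -3.77, -3.46, -4.13 and -2.72 on the control arrays and at -5.55, -4.45, -5.14, -4.84 and -4.92 on the effluent arrays. Both groups were scattered and the gap between them was narrow. dhx58 fell 2.76-fold (log2 change -1.46 ± 0.31 SE, n = 4 and 5, limma's adjusted p = 0.00562; -1.44 on scan day 1 and -1.45 on day 2). The gene chd1l, a chromatin remodeller drawn to poly-ADP-ribose at DNA breaks, lay at 0.98, 0.70, 0.79 and 0.89 on the control arrays and at -0.06, -0.21, -0.30, -0.37 and 0.001 on the effluent arrays. The change was nearly equal on both days. chd1l fell 2.04-fold (log2 change -1.03 ± 0.16 SE, n = 4 and 5, limma's adjusted p = 0.00134; -1.03 on scan day 1 and -1.03 on day 2). That is the probe used. Of its 3 probes 2 moved up and 1 down. Against 0.5x, ntan1 (-0.21) and dhx58 (0.22) lay opposite to their change against control and did not pass (adjusted p = 0.623 and 0.675). Nor did tp53rk, rgs2, man2a1 and chd1l pass against 0.5x (adjusted p = 0.148, 0.467, 0.271 and 0.363). Both ifngr2 and cers4a passed it (0.93 and -0.79, adjusted p = 0.0472 and 0.0149).

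**Figure D2:**
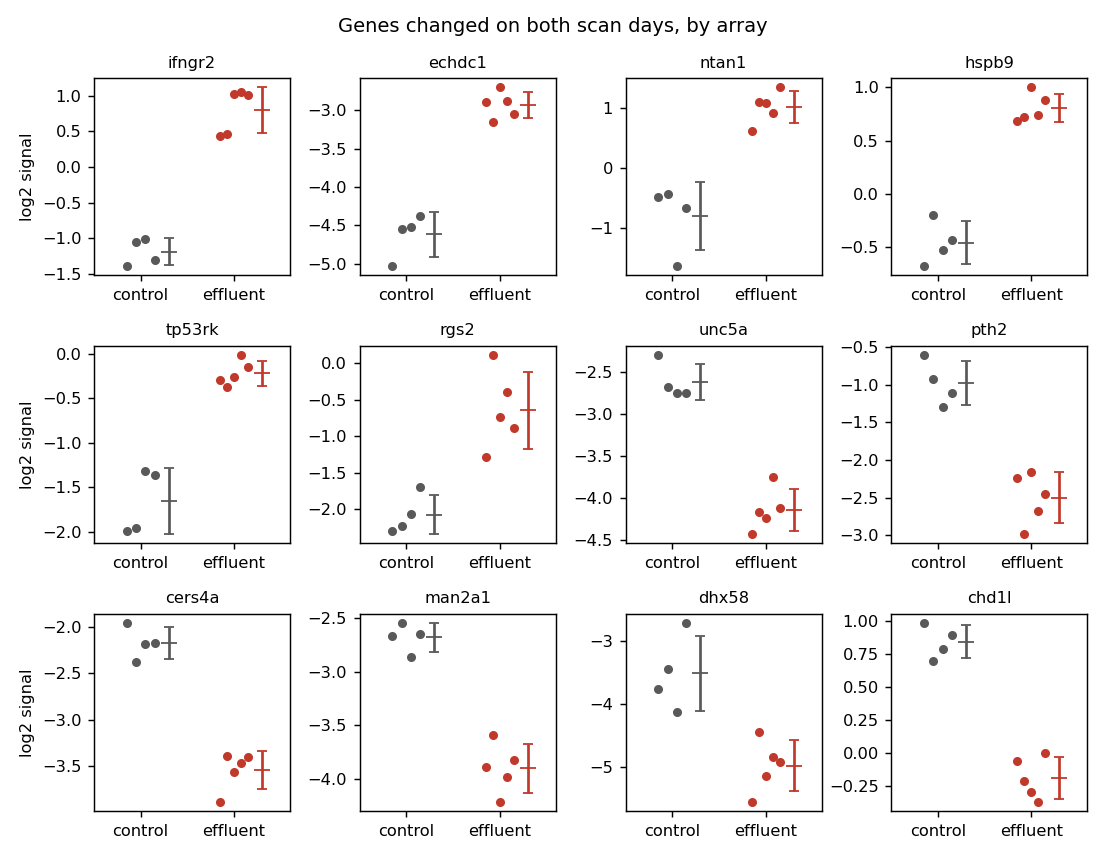
Log2 signal relative to the array's 75th percentile (y axis, own scale for each gene) of 12 genes on the 4 control arrays (grey) and 5 effluent arrays (red), with the mean and SD at the right of each group. In all 12 panels the groups do not overlap, as the choice of the genes required. The genes ifngr2, echdc1, ntan1, hspb9, tp53rk and rgs2 are higher and the others lower in effluent larvae.

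Further steady falls covered signalling, matrix and transport. The plexin gene plxnb2a.2, a semaphorin receptor, fell by 1.40 ± 0.24 SE (adjusted p = 0.00222). The gene of the collagen cross-linking enzyme loxl2a fell by 1.21 ± 0.23 (adjusted p = 0.00339), the small GTPase gene arl3l2 by 1.23 ± 0.12 (adjusted p = 0.000117) and the lectin-like immune receptor gene illr1 by 1.23 ± 0.20 (adjusted p = 0.00158). The gene calcoco1b, whose human relative is an autophagy receptor, fell by 1.26 ± 0.25 (adjusted p = 0.00417). An antisense transcript of a phosphate transporter gene, slc34a2aas, fell by 1.26 ± 0.16 (adjusted p = 0.000443). By its name it belongs to a different copy of the transporter than slc34a2b. The gene slc34a2b, not well above background on any control array, was at least 1.44-fold higher (adjusted p = 0.00825, means -6.85 and -5.61). Its arrays overlapped between groups, with normexp it stood at -0.15, it did not pass within either scan day, and it was picked after its value was seen.

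Genes measured on one side give only bounds. The bound sets the effluent mean against the lowest level measurable on the control arrays. The filter kept these genes through the effluent arrays alone, so their adjusted p-values rest on control signals below background and support nothing, slc34a2b included. The receptor gene oxgr1a.1, for 2-oxoglutarate, was well above background on 0 of 4 control and 5 of 5 effluent arrays and at least 2.18-fold higher (adjusted p = 0.0116; means -7.23 and -5.07), although its arrays overlapped between groups. The P450 gene cyp2k6 was at least 3.12-fold higher (adjusted p = 0.00625; means -6.20 and -4.40). The leading bounds by the same rule were those of ggact.2 (at least 15.4-fold, adjusted p = 0.00141; means -7.69 and -2.27), pimr132 (at least 3.29-fold, adjusted p = 0.000949; means -7.83 and -4.50) and opn1mw4 (at least 3.22-fold, adjusted p = 0.000117; means -8.14 and -4.53). With normexp the call was kept for ggact.2 (1.72) and lost for oxgr1a.1 (0.06), cyp2k6 (0.23), pimr132 (0.40) and opn1mw4 (0.42). No named gene was above background on every control and on no effluent array. More probes were well above background on every effluent array than on any control. The part of that in this one-sidedness was not tested.

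Families of neuronal surface proteins were lower as groups. Counts of list members, here and below, stand beside 16.3% lower, 10.3% higher and 10.6% steady lower among all genes. Of the protocadherins 64.7% were called in either direction, beside 26.6% of all genes. Protocadherins, adhesion molecules that give neurons a surface identity, had 22 of 34 measured genes lower and 0 higher, 18 of them steady, with a median change of -0.50 (-0.76 on scan day 1 and -0.20 on day 2) beside -0.05 for all genes. The median member lay at 1.57, 1.28, 1.01 and 0.91 on the control arrays and at 0.77, 0.47, 0.52, 0.66 and 0.82 on the effluent arrays. Those ranges did not overlap, and controls 1 and 2 were the highest. Of 25 measured genes of the tandem clusters 18 were lower, and such neighbours share sequence, so their probes may not be independent; cross-hybridisation was not tested. The cluster gene pcdh2g1 lay at -0.35, -0.26, -0.72 and -0.76 on the control arrays and at -1.54, -1.48, -1.55, -1.39 and -1.22 on the effluent arrays. Its groups did not overlap. pcdh2g1 fell 1.88-fold (log2 change -0.91 ± 0.12 SE, n = 4 and 5, limma's adjusted p = 0.000648; -1.22 on scan day 1 and -0.56 on day 2). Outside the clusters pcdh17 fell by 0.92 ± 0.18 (adjusted p = 0.00417; -1.39 on day 1 and -0.36 on day 2), and pcdh19 and pcdh10b fell by 0.51 and 0.40 (adjusted p = 0.0128 and 0.0254). Within the day 2 arrays alone 3 of the 34 passed, all lower, beside 522 of all 12811 genes (4.07%), 258 of them lower.

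**Figure D3:**
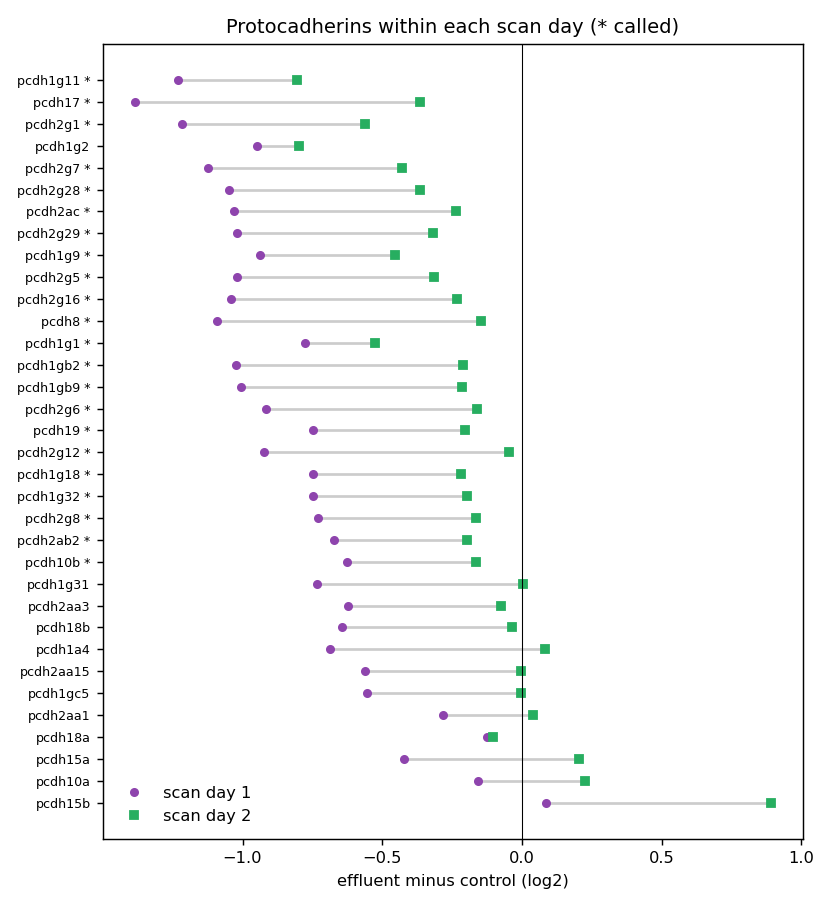
Effluent minus control difference (log2, x axis) of the 34 measured protocadherins within scan day 1 (purple circles) and day 2 (green squares), joined by a line; an asterisk marks the 22 called genes. Most day 1 values lie further below 0 than the day 2 values (medians -0.76 and -0.20).

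Axon guidance genes, the ligands and receptors that steer growth cones, had 26 of 60 lower and 1 higher. The called share was 45.0%, beside 26.6% of all genes. Their median was -0.40 (-0.50 and -0.19 within the days), with 17 steady lower genes. Among ligands, the semaphorin gene sema3ab fell by 1.13 ± 0.16 (adjusted p = 0.000758; -1.31 and -0.89 within the days), netrin ntn1b by 0.82 ± 0.28 (adjusted p = 0.0388; -1.45 and -0.19) and slit2 by 0.55 ± 0.18 (adjusted p = 0.0361). Among receptors, unc5a and plxnb2a.2 are given above, and the netrin receptor gene dcc fell by 0.82 ± 0.17 (adjusted p = 0.00594). The ephrin receptor gene epha4a fell by 0.65 ± 0.12 (adjusted p = 0.00344), about equally on the days (-0.63 and -0.65). The member that rose was ephb4b (0.38 ± 0.13, adjusted p = 0.0458), an ephrin receptor known from veins. Its call was lost with normexp, with no filter and within either scan day.

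Among channels of excitable cells the lists differed. Voltage-gated sodium channel genes had 7 of 12 lower and 0 higher (median -0.58; -0.74 and -0.31 within the days), ionotropic glutamate receptors 6 of 12 and 0 (-0.60; -0.97 and -0.21), calcium channels 6 of 19 and 0 (-0.38; -0.57 and -0.08). GABA-A and glycine receptors had 3 of 14 lower and 0 higher, a share of 21.4% beside 26.6% of all genes (median -0.37; -0.73 and -0.02). Nicotinic receptors had 3 of 13 lower and 2 higher (median -0.20), and TRP channels 2 of 12 in each direction (median 0.10). The channel subunit scn1ba fell by 0.63 ± 0.09 (adjusted p = 0.000624), by nearly the same amount on each day (-0.64 and -0.63). The channel gene scn12aa fell by 0.83 (adjusted p = 0.00304), and the NMDA receptor gene grin2bb by 0.88 (adjusted p = 0.00982). Potassium channels had 12 of 53 lower and 7 higher (median -0.27; -0.52 and -0.00), with kcnh5a falling by 1.25 ± 0.22 (adjusted p = 0.00241). Of the 7 higher, 4 were tandem copies of kcnj1a, which carries potassium in ionocytes and kidney, led by kcnj1a.2 (0.84 ± 0.17, adjusted p = 0.00471); of 6 measured copies kcnj1a.4 and kcnj1a.6 did not pass (0.15 and -0.31, adjusted p = 0.282 and 0.223). Both general neuron markers fell as well, elavl3 by 0.66 (adjusted p = 0.0395; -1.25 and -0.03 within the days) and snap25a by 0.46 (adjusted p = 0.0242; -0.66 and -0.23). On slide 3, the day 2 slide with both groups, elavl3 and snap25a differed by 0.158 and 0.006. Both calls were lost with median scaling, in the deposited matrix, within day 2, and without control 1 or control 2. The log2 of the summed level of these markers was 4.08 to 4.68 on control and 3.91 to 4.23 on effluent arrays. The part of neuron number in the falls of this paragraph was not tested.

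Hormone and growth signalling moved in parts. Called shares were 36.8% for the insulin and IGF list, 32.8% for nuclear receptors and 35.7% for Krüppel-like factors. The share of all genes was 26.6%. In the insulin and IGF list 5 of 19 genes were lower, all 5 steady, and 2 higher (median -0.22; -0.15 and -0.22 within the days). The growth factor gene igf1 lay at -2.52, -2.44, -2.38 and -1.85 on the control arrays and at -2.73, -3.15, -3.05, -2.92 and -2.55 on the effluent arrays. Control 1 and effluent 5 nearly touched, and the groups did not overlap. igf1 fell 1.49-fold (log2 change -0.58 ± 0.18 SE, n = 4 and 5, limma's adjusted p = 0.0305; -0.49 on scan day 1 and -0.62 on day 2). Its call was lost with quantile or median scaling and within scan day 2. It was also lost without control 4 and without 1x 2, 3 or 4. The receptor genes igf1rb and insrb fell by 0.65 and 0.51 (adjusted p = 0.00411 and 0.0194), the adaptor gene irs2a by 0.65 (adjusted p = 0.0133) and the binding protein gene igfbp5b by 0.61 (adjusted p = 0.00132). The members that rose were igfbp2a (0.62, adjusted p = 0.0451) and igf2a (0.47, adjusted p = 0.0295). Both lost the call within scan day 2 and without control 1 or control 2. Nuclear receptors had 16 of 61 lower and 4 higher (median -0.14; -0.23 and -0.07). The bile acid feedback gene nr0b2a fell by 1.04 ± 0.20 (adjusted p = 0.00344), the thyroid hormone receptor gene thraa by 0.61 ± 0.09 (adjusted p = 0.00109; -0.62 and -0.59), and the vitamin D receptor genes vdra and vdrb by 0.57 and 0.60 (adjusted p = 0.00373 and 0.0163). The receptor gene hnf4b rose by 1.02 ± 0.22 (adjusted p = 0.00673). Among Krüppel-like factors 6 of 28 were higher and 4 lower, led by the glucocorticoid-responsive klf9 (1.01 ± 0.14, adjusted p = 0.000778).

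Patterning and chromatin lists had shares of called genes at or below the 26.6% of all genes, with 21.3% of Hox, 24.1% of Notch and 26.3% of chromatin genes. Hox genes, which set position along the body, had 10 of 47 lower and 0 higher (median -0.18; -0.31 and -0.03 within the days), led by hoxa11a (-0.92 ± 0.16, adjusted p = 0.00229). The Notch list had 7 of 29 lower and 0 higher (median -0.18; -0.41 and -0.09), with the receptor gene notch3 at -0.62 (adjusted p = 0.00609) and the target gene heyl at -0.64 (adjusted p = 0.00463). Chromatin remodellers and DNA methylation genes had 14 of 57 lower and 1 higher (median -0.26; -0.37 and 0.01). The histone deacetylase gene hdac4 fell by 0.73 ± 0.12 (adjusted p = 0.0018) equally on both days, and the de novo DNA methyltransferase gene dnmt3aa by 0.55 ± 0.11 (adjusted p = 0.00505). In the autophagy list 8 of 26 were lower and 1 higher (median -0.22; -0.29 and -0.17). That called share was 34.6%, above the 26.6% of all genes. The mitophagy receptor gene bnip3 fell by 0.99 ± 0.12 (adjusted p = 0.000388), atg5 by 0.59 (adjusted p = 0.0168) and becn1 by 0.46 (adjusted p = 0.0194), while map1lc3c rose by 0.70 (adjusted p = 0.00252). Carbonic anhydrases, which interconvert carbon dioxide and bicarbonate, had 5 of 10 lower and 0 higher (median -0.18; -0.18 and -0.26), among them mitochondrial ca5a (-0.62 ± 0.10, adjusted p = 0.00191).

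Higher families were mostly metabolic. Called shares were 46.2% for the one-carbon list and 33.3% for purine and pyrimidine synthesis, beside 26.6% of all genes. They were 42.4% for amino acid breakdown and 40.6% for lysosomal enzymes, both given further below. In the serine, glycine and one-carbon list, which supplies methyl groups and nucleotide carbons, 10 of 26 were higher and 2 lower (median 0.37; 0.47 and 0.23 within the days). Its median member lay at 0.07, 0.09, 0.47 and 0.68 on control arrays and at 0.85, 0.70, 0.80, 0.64 and 0.66 on effluent arrays, so controls 1 and 2 were lowest and control 4 reached into the effluent range. In the folate branch mtr, which remakes methionine, rose by 0.62 ± 0.11 (adjusted p = 0.00298; 0.60 and 0.62), dhfr by 0.63 ± 0.13 (adjusted p = 0.00444; 0.66 and 0.65) and shmt1 by 1.03 ± 0.19 (adjusted p = 0.00282; 1.55 and 0.47). The methionine adenosyltransferase gene mat1a rose by 1.01 ± 0.19 (adjusted p = 0.00344; 1.54 and 0.43). The mitochondrial genes shmt2 and mthfd2l fell (-0.50 and -0.64, adjusted p = 0.0215 and 0.0425). Purine and pyrimidine synthesis had 11 of 42 higher and 3 lower (median 0.11; 0.10 and 0.13), with the deoxycytidine kinase gene dck at 0.78 (adjusted p = 0.00357) and the IMP dehydrogenase genes split, impdh2 at 0.80 (adjusted p = 0.0373) and impdh1b at -0.63 (adjusted p = 0.00298).

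Amino acid breakdown had 20 of 59 higher and 5 lower (median 0.28), and its median was 0.53 on scan day 1 and 0.01 on day 2. The histidine lyase gene hal rose by 1.74 ± 0.36 (adjusted p = 0.0055; 2.64 and 0.87), and the urate oxidase gene uox, an enzyme of purine breakdown kept in this list, by 2.003 ± 0.65 (adjusted p = 0.0334) with 3.83 on day 1 and 0.13 on day 2. The propionyl-CoA carboxylase gene pcca rose by 0.70 ± 0.12 (adjusted p = 0.00179), with like differences within the days (0.61 and 0.82). The liver markers followed the same days: fabp10a differed by 0.64 on day 1 and -0.35 on day 2 and apoa1a by 1.44 and 0.42. Their summed log2 level was 6.51 to 7.95 on control and 7.59 to 7.68 on effluent arrays, and the part of liver RNA in these rises was not tested. Lysosomal enzymes had 9 of 32 higher and 4 lower (median 0.13; 0.22 and 0.04), with the sterol-binding npc2.2 at 1.20 ± 0.23 (adjusted p = 0.00336) and the galactosidase gene gla at 0.87 ± 0.18 (adjusted p = 0.00602). Mitochondrial import genes had 4 of 25 higher and 0 lower, a called share of 16.0%, below the 26.6% of all genes. The channel gene timm17a led them (0.69 ± 0.13, adjusted p = 0.0035, with 0.65 and 0.67 within the days).

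**Figure D4:**
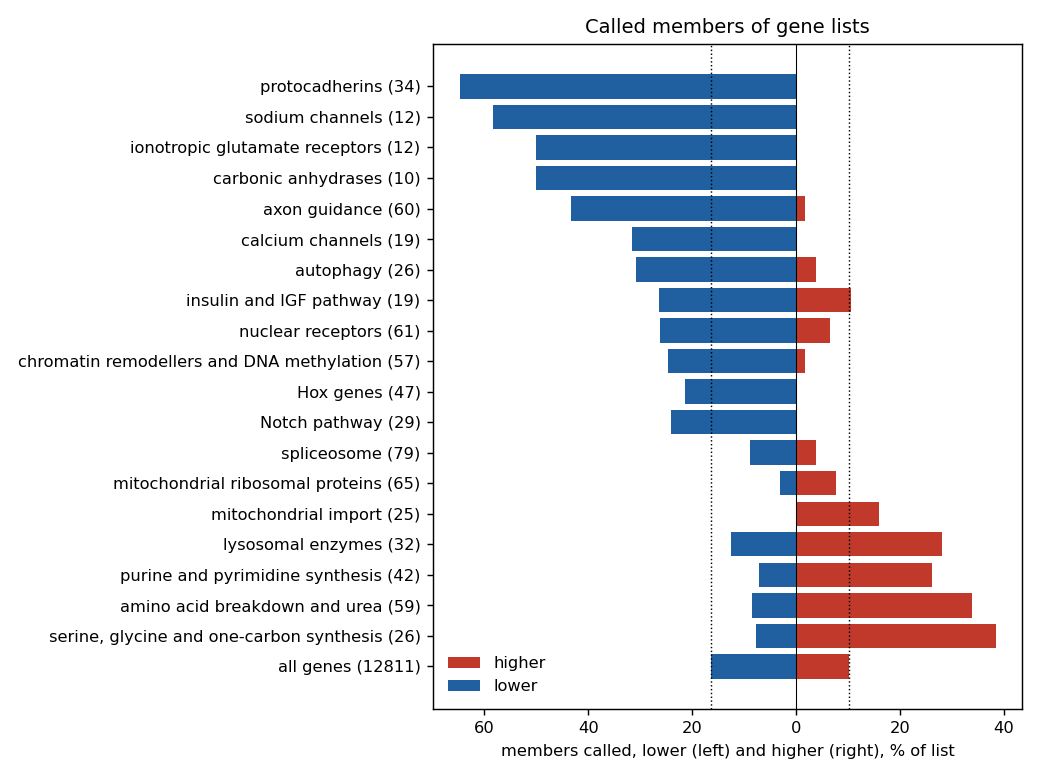
Share of each list's measured members (number in parentheses) called lower (blue, left) or higher (red, right) at 1x, in percent, with dotted lines at the shares of all genes (16.3% lower, 10.3% higher). Protocadherins, sodium channels, glutamate receptors and carbonic anhydrases extend furthest to the left and the one-carbon and amino acid lists furthest to the right.

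Several large families stayed near or below the share of all genes. Mitochondrial ribosomal proteins had 10.8% of 65 genes called, the spliceosome list 12.7% of 79, cathepsins 6.7% of 15 and the cartilage, bone and tooth list 13.5% of 37, against 26.6% of all genes. Ribosome biogenesis had 9 of 70 higher and 2 lower (15.7% called, median 0.11), and neuropeptides and brain hormones 2 of 37 higher and 9 lower (29.7%, median -0.14). Solute carriers of the plasma membrane had 35 higher and 36 lower of 228 (median -0.01), a count that includes the antisense slc34a2aas. Their called share of 31.1% lay above the 26.6% of all genes. Pituitary hormones had 0 of 9 called. The prolactin gene prl, above background on 2 of 4 controls, had an adjusted p of 0.0939 in limma, passed with slide as a block (1.22, adjusted p = 0.0322), with scan day as a block and within scan day 1, and stood at -0.18 with normexp. The list's median of 0.54 joined 1.25 on day 1 with -0.18 on day 2 and was -0.18 with normexp.

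Zebrafish keep many gene pairs from an ancient duplication of the fish genome, labelled a and b. Pairs were taken here by name alone, as symbols equal but for a final a or b, and their origin was not checked. Of 1347 measured pairs, both copies were higher in 22 and both lower in 77, one copy was called in 519 and neither in 706. In 23 pairs the copies were called in opposite directions. Of all genes 10.3% were called higher and 16.3% lower. Whether opposite calls were more or less frequent within pairs than between unrelated genes was not tested. A test of the difference within each array passed for 255 pairs (18.9%), and 249 of them passed with slide as a block with the same sign. The clock genes per1a and per1b moved apart: per1a fell by 0.91 ± 0.23 (adjusted p = 0.0121) and per1b rose by 0.54 ± 0.14 (adjusted p = 0.0121), a difference of -1.45 ± 0.22 (adjusted p = 0.00142). Transcripts of per1a lay at 0.93, 1.25, 0.94 and 1.40 on the control arrays and at 0.20, -0.14, 0.58, 0.09 and 0.38 on the effluent arrays. Those of per1b lay at 2.32, 2.13, 2.30 and 2.59 on the control arrays and at 2.71, 2.85, 2.68, 3.12 and 3.04 on the effluent arrays. The calcium-dependent kinase gene camkk1b rose by 1.08 while camkk1a fell by 0.42 (difference adjusted p = 0.00283). For the angiopoietin genes, angpt2a rose by 0.87 and angpt2b fell by 1.06 (difference adjusted p = 0.00433), although angpt2a was above background on 1 of 4 controls and stood at -0.10 with normexp. The call of angpt2b (limma's adjusted p = 0.0443) was lost with median scaling, with no filter, within either scan day and in most fits with 1 array left out. For the purine phosphorylases, pnp5a rose by 0.60 and pnp5b fell by 0.81 (difference adjusted p = 0.00283). The ubiquitin ligase gene mylipb rose by 0.72 and mylipa fell by 0.62 (difference adjusted p = 0.000892). The annexin gene anxa1b rose by 0.87 and anxa1a fell by 0.40 (difference adjusted p = 0.00841), and the call of anxa1a was lost with median scaling and within either scan day. The muscle genes mybpc2a and mybpc2b changed by 0.83 and -0.80 (difference adjusted p = 0.0159). The heme oxygenase gene hmox1a differed by 1.87 on day 1 and -0.12 on day 2, and hmox1b by -0.44 and -0.82.

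**Figure D5:**
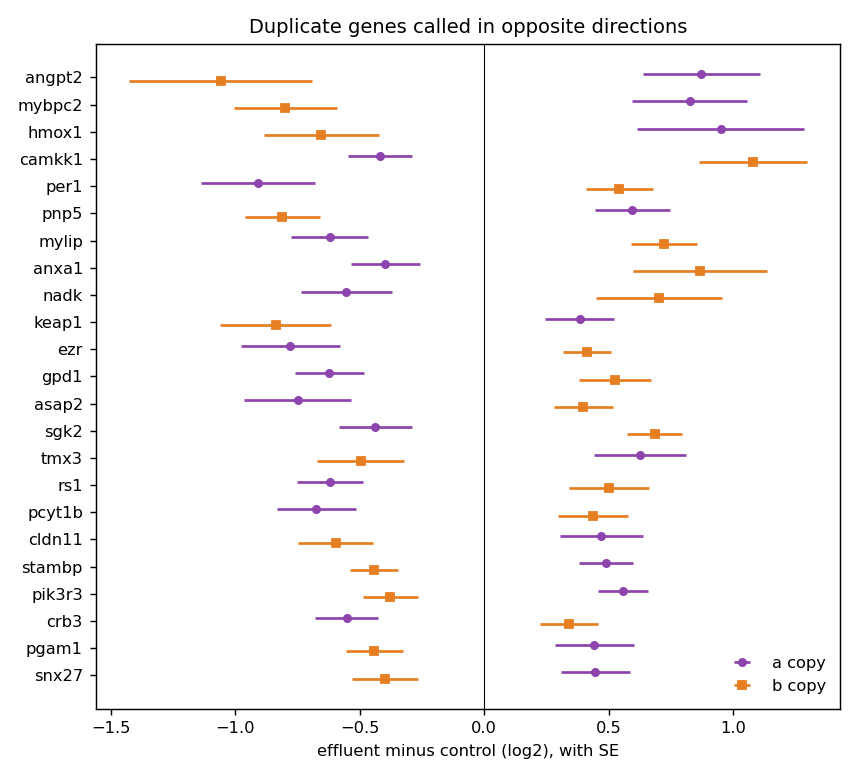
Change at 1x (log2, with SE, x axis) of the a copy (purple circles) and b copy (orange squares) of the 23 gene pairs whose copies were called in opposite directions, ordered by the size of their difference from the top. The angpt2 pair lies furthest apart and the snx27 pair closest.

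Calls in one direction covered at least 4 neighbouring measured genes in 21 runs, with gene order from the GRCz12tu annotation. Several runs are tandem copies whose probes may share sequence, 16.3% of all genes were called lower and 10.3% higher, and whether neighbours shared calls more often than other genes was not tested. All members kept the call in 19 runs with slide as a block, in 16 with quantile scaling, in 12 with median scaling, in 16 with normexp and in 0 within scan day 2. The longest held 10 genes on chromosome 14, the histamine receptor gene hrh2a and 9 protocadherins of the pcdh2g cluster, all lower (-0.91 to -0.45, 9 steady). The median of that run was -1.03 on scan day 1 and -0.32 on day 2. Next came 9 genes on chromosome 7 known only by clone names, all higher (0.79 to 1.71, 8 steady; medians 1.11 and 0.85 within the days). A run of 5 pcdh1g genes on chromosome 10 was lower (median -0.62, with -1.005 and -0.22 within the days). On chromosome 7 the run jac7, aep1, jac10 and jac11 was lower (-2.57 to -0.48). On chromosome 16 the homeobox genes irx4a, irx2a and irx1a with adcy3a were lower (median -0.45, all 4 steady). Within the days the medians of that run were -0.73 and -0.13. On chromosome 11, atp2b4, csf1a, the neuropeptide gene kiss1 and nfasca were lower (median -0.65); kiss1 was above background on 1 control and 1 effluent array and did not pass with slide as a block (adjusted p = 0.0577). On chromosome 9, 4 gamma crystallin genes of the lens, crygm2d12, crygm2d20, crygm2d9 and crygm2d4, were lower (median -0.37), and none of the 4 passed with quantile scaling (-0.08 to -0.02) or median scaling. A higher run on chromosome 14 joined the phosphatase gene dusp1, ergic1, the lymphatic receptor gene flt4 and trim105 (median 0.69, all 4 steady). Another on chromosome 16 joined nbn, gtpbp10 and the apolipoprotein genes apoa4b.1, apoa4b.2 and apoeb (median 0.52; 0.89 and 0.19 within the days). Other lower runs were ttll11, dab2ipb, fibcd1b and aif1l with a pair of clone-named genes (chromosome 5), braf, mrps33, tmem178bb, cnot4b and mkrn1 (chromosome 4), btg1, caprin2, sinhcaf and dennd5b (chromosome 4), and plxna3, ptpn18, gripap1 and kcnd1 (chromosome 8). So were vgll4b, slc6a1b, atp2b2 and iars1 (chromosome 11), lrfn1, igsf11 and ilkap with zgc:162872 (chromosome 15), cygb1 with 3 clone-named genes (chromosome 3), and slit1b, armh3 and srfa with si:ch73-173h19.3 (chromosome 22). Further runs held clone-named genes, 5 higher on chromosome 7 (median 0.73) and 5 lower on chromosome 22 (median -0.56).

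Some changes were much larger on scan day 1 or had opposite signs on the 2 days. The transport protein gene ttr, made by liver and known for carrying thyroid hormone, differed by 2.30 on day 1 and by -0.38 on day 2 (adjusted p = 0.000137 for the difference). Its level lay at -0.16, 0.21, 2.58 and 2.63 on the control arrays and at 2.26, 2.41, 2.30, 2.17 and 2.28 on the effluent arrays. Controls 1 and 2 were far below controls 3 and 4, and the effluent arrays of both days lay near one level. The same shape held for odam (5.78 and -1.41, adjusted p = 0.000137), prss60.1 (4.11 and 0.23, adjusted p = 0.000137), the troponin gene tnni2a.1 (2.81 and -0.66, adjusted p = 0.000137), the connexin gene gja13.1 (2.04 and -0.02, adjusted p = 0.000227) and the glutathione transferase gene gsta.1 (2.71 and 0.03, adjusted p = 0.000237). Since odam was above background on 3 of 4 controls and prss60.1 on 2 of 4, the others being of day 1, their day 1 differences are not exact. In the other direction stood the synaptic vesicle genes dnajc5aa (-1.27 and -0.14, adjusted p = 0.00119) and scamp5a (-0.91 and 0.05, adjusted p = 0.00231). With them were the glycine receptor gene glra3 (-1.16 and -0.15, adjusted p = 0.00209), the splicing gene ptbp2b (-0.64 and 0.36, adjusted p = 0.0023), the GTPase gene rasd4 (-0.95 and 0.15, adjusted p = 0.00206) and srfb (-0.88 and 0.31, adjusted p = 0.00249). Among exocrine pancreas markers prss1 differed by 1.47 and -0.99, and their summed log2 level was 6.51 to 9.20 on control and 7.81 to 8.45 on effluent arrays. The part of tissue makeup in the day difference was not tested. Within day 2 alone, both odam and prss1 passed as lower at 1x.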

How the data were processed

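RNA of whole larvae was measured on 14 1-colour Agilent arrays (43603 probes). The authors deposited scanner output made with Agilent Feature Extraction 10.7, per the submitters' processing notes. The deposited processed signal, an intensity, had been background-subtracted and detrended within each array, per the file headers. A matrix of log2 values deposited by the authors, with no stated method, served as an alternative.

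Here, 73 flagged spots were left out, spots of a probe averaged, and log2 processed signal taken less each array's 75th percentile over non-control probes. Probes were kept (38807) if at least 4 arrays of either group, or of the 0.5x group, measured them well above background, and the probe with the highest mean stood for a gene (12811 genes; names from GRCz12tu, 25978 probes matched). limma 3.58.1 (R 4.3.3) was fitted to all 14 arrays with no block term, p-values were adjusted by Benjamini-Hochberg, and 0.05 was the threshold. Duplicate pairs were tested as differences within an array, and scan days as an interaction. The tests were checked on simulated data with independent noise on each array and no slide or scan day effect. That check does not cover the correlation between arrays of a slide. Normexp used median spot signals, since the files hold no mean signal. Precision is limited by the number of arrays.

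The genes and lists were chosen with earlier results of these data known. Named genes were the leading steady genes by their smaller within-day change, one-sided genes, leading members of lists, day differences, opposite pairs and runs (some are not reported here); tissue markers and values given for contrast were added. Some list members were removed, moved or renamed for function after their values were seen, which moved counts slightly (insulin and IGF, amino acid, nuclear receptor, neuropeptide and ribosome lists among others). Of 72 lists examined, the text describes those with the most uneven counts and some near the background, a choice made after the values were seen. Steady genes already prominent as exposure markers were passed over, as were some other leading steady genes. List members outside the leading 4 were likewise chosen after their values were seen. Replicate numbers of control and 1x arrays did not all deviate together (same-number correlations 0.199, 0.142, -0.0457 and 0.0937), so they were not treated as pairs. Alternatives were slide and scan day as blocks, each day alone, other scalings and filters, the deposited matrix and arrays left out.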

Additional observations from a re-analysis of the deposited data

Results flagged for a closer look

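The change at 1x differed between scan days for 41 of the 173 genes named above, by limma's interaction test adjusted over all probes. Of the named genes 12 were named because they led that test, which passed for 17.2% of all genes. The day 1 difference exceeded that of day 2 by 7.19 for odam, 3.88 for prss60.1, 3.70 for uox, 3.46 for tnni2a.1, 2.68 for ttr, 2.68 for gsta.1, 2.47 for prss1 and 2.45 for prl. Smaller excesses were 2.26 for apoa4b.2, 2.07 for gja13.1, 1.99 for hmox1a, 1.77 for hal, 1.63 for apoa4b.1, 1.15 for mybpc2a, 1.11 for mat1a and 1.07 for shmt1. The least were 1.04 for ugdh, 0.99 for fabp10a, 0.73 for apoeb and 0.66 for hnf4b. Day 1 minus day 2 was negative, at -1.26 for ntn1b, -1.22 for elavl3, -1.19 for srfb, -1.13 for dnajc5aa, -1.12 for mthfd2l, -1.10 for rasd4, -1.02 for pcdh17, -1.01 for ptbp2b and -1.003 for glra3. Further negative values were -0.96 for scamp5a, -0.94 for kcnj1a.6, -0.93 for adcy3a, -0.90 for fibcd1b, -0.85 for grin2bb, -0.75 for lrfn1, -0.70 for irx4a, -0.66 for pcdh2g1 and -0.62 for notch3. Nearest to 0 were -0.56 for dab2ipb, -0.54 for pcdh19 and -0.54 for slc6a1b. On day 1, odam was not above background on control 1, nor prss60.1 and prl on controls 1 and 2, so their values are not exact. Controls 1 and 2, which stood apart, are the day 1 controls; their part in these differences was not tested.

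Single arrays stood far from the rest of their group in 20 of 346 groups examined by Dixon's criterion, which chance meets in about 1 in 20 groups. For 1x 2, the log2 signal was -1.21 for angpt2b, -1.22 for calcoco1b and -2.86 for opn1mw4. For 1x 3, the log2 signal was 4.23 for anxa1a, 2.51 for dennd5b and -3.65 for heyl. For 1x 5, the log2 signal was 0.49 for elavl3, -1.16 for plxna3 and 4.11 for snap25a. For control 1, the log2 signal was -2.83 for camkk1a, -1.85 for ephb4b and -2.30 for unc5a. For control 2, the log2 signal was -4.48 for igf1rb. For control 3, the log2 signal was 0.88 for mylipa and 3.98 for snap25a. For control 4, the log2 signal was 6.24 for btg1, -0.40 for ca5a, 1.31 for cnot4b, 0.97 for hmox1b and -2.38 for prss60.2.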

How the results depend on the processing

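The probe count of 11168 was 18076 within scan day 1, 1556 within day 2, 4278 without both day 1 controls (chosen after seeing the data), 5963 to 13013 with 1 array left out, 14141 with slide as a block, 16017 with normexp and 13479 in the deposited matrix. Genes higher (1320) were 2282 within day 1, 264 within day 2, 1985 with scan day as a block, 742 without both day 1 controls and 810 to 1759 with 1 array left out. Genes lower (2088) were 3386, 258 and 716 within day 1, within day 2 and without both day 1 controls, and 1025 to 2365 with 1 array left out. Of the steady genes, 182 of 848 higher and 132 of 1362 lower were called within day 2, 437 and 422 without both day 1 controls, and 644 to 808 and 870 to 1323 with 1 array left out. Probes that differed between days (6016) were 3567 with normexp, 3094 on 9 arrays and 2020 to 7536 with 1 array left out. Unequal pairs (255) were 397 with slide as a block and 147 to 300 with 1 array left out. The cause was not tested, beyond the fewer arrays in some fits. The replicate numbers do not pair the samples; with the replicate block 12837 probes were called.

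Of 161 named genes that passed, 36 passed in all settings tried; the others lost the call in at least 1, most often within day 2. Signs turned within day 2 for gja13.1 (-0.02), hmox1a (-0.12), odam (-1.41), prss1 (-0.995) and scamp5a (0.05). They turned without both day 1 controls for prss1 (-0.82), ptbp2b (0.44) and tnni2a.1 (-0.57), and with normexp for angpt2a (-0.10) and slc34a2b (-0.15). In the turned direction, odam and prss1 passed within day 2. So did prss1, ptbp2b and tnni2a.1 without both day 1 controls.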
